A study of Mus musculus with 12 samples.

Results

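The genes described here are the 4 tissue inhibitors of metalloproteinases (Timp1, Timp2, Timp3 and Timp4) and 6 ADAMTS proteases (Adamts1, Adamts4, Adamts5, Adamts8, Adamts15 and Adamts2), 10 of the 55092 features in the table. They were selected by symbol, as 2 protein families and with earlier results of these data known, and each of the 10 symbols matched 1 row. The levels come from RNA-Seq of the abdominal aorta in 12 male mice, 3 in each of 4 groups, at day 7 of infusion by mini-osmotic pump. CFS mice were CCN2fl/fl and received saline, CSS mice were CCN2SMCΔ and received saline, CFA mice were CCN2fl/fl and received angiotensin II (Ang II, 500 ng/kg/min), and CSA mice were CCN2SMCΔ and received Ang II at that dose. Both genotypes carry floxed CCN2 alleles and, per the study's methods, both were injected with 5 doses of tamoxifen from 8 weeks of age, with a 2-week washout before the pumps. CCN2SMCΔ mice also carry Myh11-Cre-ERT2, a tamoxifen-dependent Cre driven by a smooth muscle promoter, whereas the CCN2fl/fl controls lack Cre, so the other cells of the vessel keep the gene and Cre itself is present in 1 genotype only. Each library was taken as 1 mouse, and the numbers in the labels are used as mouse names.

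TIMPs are small secreted proteins that block the active site of metalloproteinases. TIMP1 acts on most soluble matrix metalloproteinases (MMPs), TIMP2 also takes part in the activation of pro-MMP2 at the cell surface by MMP14, TIMP3 is held in the extracellular matrix and reaches ADAM and ADAMTS enzymes as well, and TIMP4 has the most restricted expression, with high levels in heart. ADAMTS proteases are secreted enzymes with thrombospondin repeats. ADAMTS1, ADAMTS4, ADAMTS5, ADAMTS8 and ADAMTS15 cleave the large proteoglycans versican and aggrecan, which fill the space between the lamellae of the aortic media, and ADAMTS2 removes the N-propeptide of fibrillar procollagens. Both families take part in the turnover of the matrix of the aortic wall, alongside the MMPs.

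Levels are FPKM (fragment numbers scaled to gene length and sequencing depth), so they can be compared between genes. A gene is said to have risen or fallen where its adjusted p was under 0.05 in limma on log2(FPKM + 0.1) with Benjamini-Hochberg adjustment over 14676 tested genes, and to be differentially expressed where its log2 fold change also exceeded 1.5 in size. A fold change on this scale understates that of genes with low FPKM. The deposited FPKM also carry a factor per library beyond depth that no source used here describes, 0.986 to 1.06 in CFA, 0.902 to 0.95 in CSA and 1.02 to 1.08 in the saline mice. With libraries scaled to their fragments alone, an alternative chosen after seeing the data, the median log2 fold change of all tested genes in CSA against CFA moved from -0.04 to 0.12, the fall of Adamts2 was lost (-0.41, adjusted p = 0.121, limma) and Adamts4 rose (1.39, adjusted p = 0.0353), while the other 8 genes kept their side of the threshold. The libraries held 14558580 to 23107807 fragments, the lowest in CSA mouse 03, which also stood apart in its profile (root mean square differences on the log2 scale of 0.505 to 1.21 among the CSA mice, against 0.648 to 0.743 among the CFA mice). Where leaving it out changed a call of the 10 genes or a count of a pathway list in CSA against CFA, the value without it is given as well. The targeted gene, Ccn2, averaged 894 FPKM in CFA and 328 in CSA and fell (log2 fold change -1.41, adjusted p = 0.00622, limma), while under saline the means were 766 and 554 FPKM and the groups overlapped (log2 fold change -0.40, 95% interval -1.14 to 0.34). The aortas carried the defining markers of smooth muscle at 5589 to 10366 FPKM in sum over 8 genes in the 9 mice of CFS, CSS and CFA and at 801 to 961 FPKM in CSA.

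Under Ang II, the inhibitors of CCN2SMCΔ aortas differed from those of CCN2fl/fl aortas in both directions, and the proteases that passed the test were lower. Timp1 rose 11.1-fold, whereas Timp2, Timp3 and Timp4 fell. Adamts1, Adamts8 and Adamts2 fell, and Adamts4, Adamts5 and Adamts15 did not pass the test. Of the 10 genes, 1 rose and 6 fell, against 19.5% of all tested genes that rose and 21.2% that fell. Without CSA mouse 03, 2 rose and 5 fell. Timp1, Timp4 and Adamts8, 3 of the 10, were differentially expressed, against 17.2% of all tested genes, and 5 were so without CSA mouse 03, when Timp3 and Adamts4 were added. In 7 of the 10 the CSA and CFA mice did not overlap, against 48.5% of all tested genes. The median log2 fold change of the 10 was -0.63, against -0.04 over all tested genes.

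**Figure D1:**
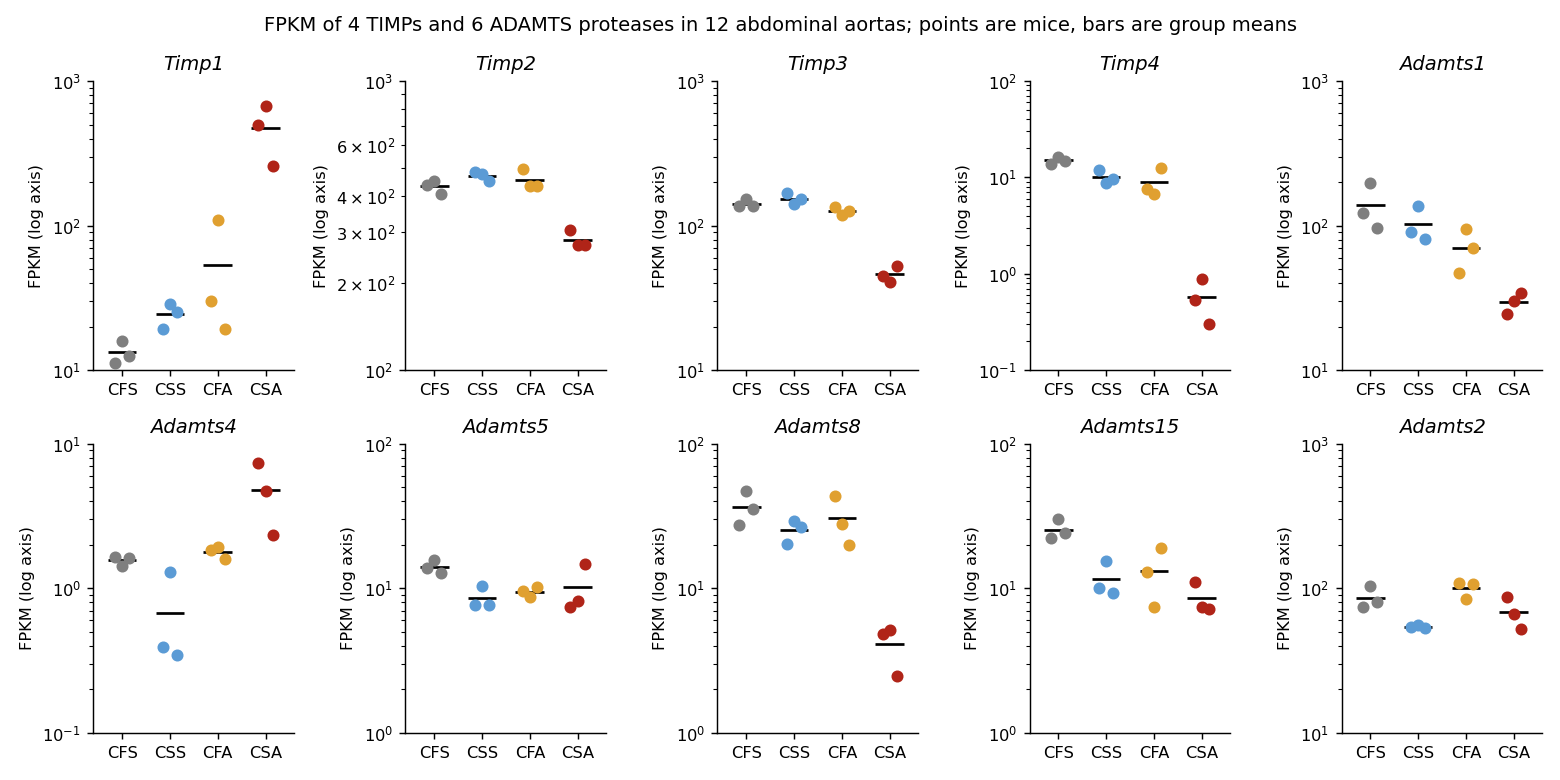
FPKM of each of the 10 genes on a log axis, with 1 point per mouse, the 4 groups along the horizontal axis and a bar at each group mean (n = 3 mice per group). The 3 CSA mice lie above all others for Timp1 and Adamts4 and below all others for Timp2, Timp3, Timp4, Adamts1 and Adamts8.

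Timp1 (ENSMUSG00000001131, chromosome X, 20870166 to 20874735 on GRCm38, plus strand) had the largest increase of the 10. It measured 11.3, 16.0 and 12.5 FPKM in CFS mice 68, 69 and 70. In CSS mice 54, 55 and 56 it measured 19.2, 28.5 and 25.5 FPKM. In CFA mice 71, 72 and 74 it measured 29.9, 109.8 and 19.4 FPKM, so that mouse 72 stood at several times the level of its group. In CSA mice 01, 02 and 03 it measured 494, 677 and 259.8 FPKM, and the lowest of these was above the highest of the other 9 mice. The group means were 13.3 ± 2.46 in CFS, 24.4 ± 4.74 in CSS, 53.0 ± 49.5 in CFA and 477 ± 209 in CSA (mean ± SD over 3 mice), and only CFA and CSS overlapped among neighbours in that order. The log2 fold change of CSA against CFA was 3.47 (standard error 0.55, adjusted p = 0.000461, limma), and it was 4.20 without CFA mouse 72 and 3.85 without CSA mouse 03. Timp1 thereby moved from the 76.1 percentile of mean FPKM among the tested genes in CFS to the 99.7 percentile in CSA.

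Macrophage markers also rose from CFA to CSA. The 9 markers summed to 1968 to 2102 FPKM in CSA and to 287.5 to 588 FPKM in CFA, all 9 rose between these groups (8 without CSA mouse 03, CFA mouse 71 or CFA mouse 74, when Mrc1 did not pass), against 19.5% of all tested genes, and none was at 0. CFA mouse 72, the mouse with high Timp1, had the 588 FPKM, against 311 and 287.5 FPKM in CFA mice 71 and 74. In CSA mice 01, 02 and 03 the macrophage sum was 2069, 2102 and 1968 FPKM, whereas Timp1 was at 494, 677 and 259.8 FPKM. Under saline the macrophage sums overlapped (224 to 272 FPKM in CSS, 205 to 250 FPKM in CFS), whereas Timp1 was higher in CSS without overlap. The 8 neutrophil markers summed to 509.9 to 558 FPKM in CSA and to 11.1 to 28.0 FPKM in CFA, where Mpo was at 0 in every mouse. Of these 8 markers 6 were tested and rose, and Ly6g, which was too low to be tested, was at 0 in CSA mice 02 and 03. The 6 T cell markers summed to 25.5 to 35.1 FPKM in CSA and to 0.922 to 2.66 FPKM in CFA. All 6 T cell markers, 3 of the 6 tested neutrophil markers and Itgam among the macrophage markers reached the filter on low values only through the CSA mice, so that the filter all but fixed their direction. The part of these cells in the Timp1 level was not tested. In a sample of whole vessel, fewer cells of a type and less RNA per cell cannot be told apart.

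Timp2 (ENSMUSG00000017466, chromosome 11, 118301069 to 118355740, minus strand) was the most abundant of the 10 in CFS, CSS and CFA. It measured 438, 451 and 407 FPKM in CFS, 484, 475 and 451 FPKM in CSS, 496, 433 and 433 FPKM in CFA, and 305, 270.2 and 270.5 FPKM in CSA mice 01, 02 and 03. The 9 mice of the first 3 groups thus lay in a narrow band, and the CSA mice lay below it without overlap. The fall from CFA to CSA was 1.61-fold (log2 fold change -0.69, standard error 0.11, adjusted p = 0.00063, limma), short of the fold limit. Timp2 remained at the 99.3 percentile of tested genes in CSA.

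Timp3 (ENSMUSG00000020044, chromosome 10, 86300372 to 86349506, plus strand) was the second most abundant inhibitor outside CSA. It measured 137, 153 and 136 FPKM in CFS, 167, 141 and 153 FPKM in CSS, 134, 118 and 126 FPKM in CFA, and 45.1, 40.8 and 52.3 FPKM in CSA. The CSA mice lay far below all others, and CSS and CFS overlapped. The fall from CFA was 2.74-fold (log2 fold change -1.46, standard error 0.13, adjusted p = 9.48e-06, limma), with the smallest standard error of the 10 after that of Timp2. This value lies just short of the fold limit, and it passed the limit without CFA mouse 72 (-1.501), without CSA mouse 03 (-1.55) and with array weights (-1.61).

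Timp4 (ENSMUSG00000030317, chromosome 6, 115241892 to 115252205, minus strand) had the largest decrease of the 10. It measured 13.7, 16.4 and 14.95 FPKM in CFS, 11.95, 8.80 and 9.61 FPKM in CSS, 7.66, 6.76 and 12.5 FPKM in CFA, and 0.535, 0.888 and 0.299 FPKM in CSA. The CFS mice lay above all others and the CSA mice below all others, and CSS and CFA overlapped. From CFA to CSA it fell 13.9-fold (log2 fold change -3.80, standard error 0.31, adjusted p = 6.37e-06, limma). With a pseudocount of 1 in place of 0.1 the log2 fold change was -2.64. The CSA values rest on 27 to 111 fragments per mouse, against 846 to 1557 in CFA. Between CSA and CFA, Timp4 dropped from the 66.4 to the 4.9 percentile of tested genes.

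The summed FPKM of the 4 inhibitors changed less than its makeup. The sum was 602 ± 33.2 in CFS, 659 ± 21.9 in CSS, 642 ± 44.4 in CFA and 805 ± 206 in CSA (mean ± SD over 3 mice), and CSA mouse 03, at 583, lay below all 3 CFA mice while CSA mice 01 and 02, at 844 and 988, lay above them. Timp1 made up 1.88% to 2.51% of the sum in CFS, 2.81% to 4.36% in CSS, 3.28% to 16.4% in CFA and 44.6% to 68.5% in CSA. Timp2 made up 64.9% to 74.3% in CFA and 27.3% to 46.4% in CSA. The share of Timp3, the inhibitor that reaches ADAMTS enzymes, was 17.7% to 21.4% in CFA and 4.13% to 8.98% in CSA. Timp1 stood at 0.153 to 0.929 times the FPKM of Timp3 in CFA and at 4.97 to 16.6 times in CSA. These shares are of transcripts and were not tested.

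**Figure D2:**
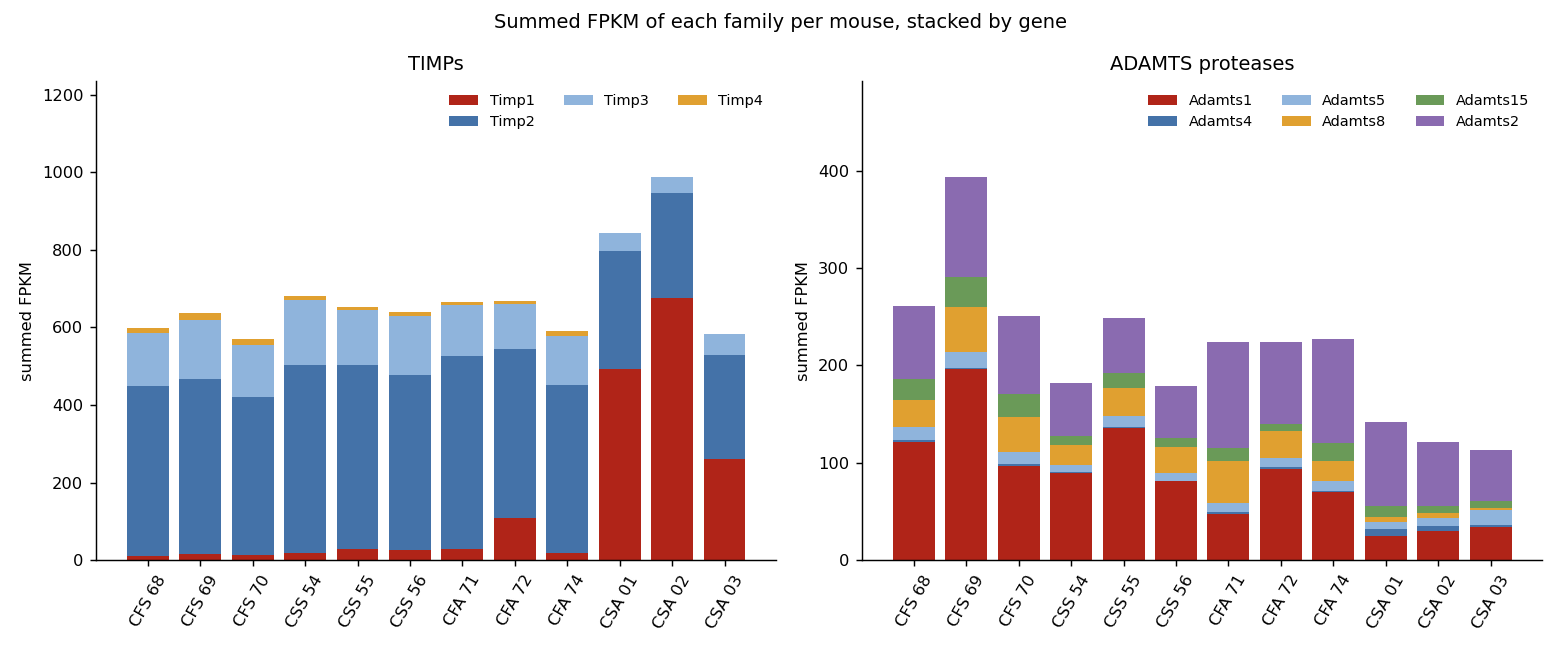
Summed FPKM (vertical axes, linear from 0) of the 4 TIMPs on the left and the 6 ADAMTS proteases on the right, with 1 stacked bar per mouse and 1 color per gene. Timp1 makes up 44.6% to 68.5% of the TIMP bar in the 3 CSA mice, and the ADAMTS bars of these mice, 113 to 142 FPKM high, are the lowest of the 12.

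The promoters of Timp1, which rose, and of Timp4 and Adamts1, which fell, are shown to compare the letters upstream of genes that moved in opposite directions. They are the 250 bases before the RefSeq start site on GRCm38.p6, read 5′ to 3′ on the strand of each gene, and 6 of the 10 genes have an entry in the RefSeq promoter table (Timp1 to Timp4, Adamts1 and Adamts2). Capitals mark matches on either strand to TGAGTNA (an AP-1 motif), CAGGAAG (ETS), GGAATG (the M-CAT motif of TEAD factors), GGGCGG (GC box), TATAAA and the CArG box of serum response factor. The windows are chrX:20869916-20870165 (plus strand), chr6:115252206-115252455 (minus strand) and chr16:85803114-85803363 (minus strand).
Timp1: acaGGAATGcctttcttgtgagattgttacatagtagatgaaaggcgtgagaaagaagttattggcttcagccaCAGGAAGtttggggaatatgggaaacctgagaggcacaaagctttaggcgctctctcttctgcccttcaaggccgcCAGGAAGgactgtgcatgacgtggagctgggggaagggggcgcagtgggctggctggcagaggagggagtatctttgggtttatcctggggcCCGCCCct
Timp4: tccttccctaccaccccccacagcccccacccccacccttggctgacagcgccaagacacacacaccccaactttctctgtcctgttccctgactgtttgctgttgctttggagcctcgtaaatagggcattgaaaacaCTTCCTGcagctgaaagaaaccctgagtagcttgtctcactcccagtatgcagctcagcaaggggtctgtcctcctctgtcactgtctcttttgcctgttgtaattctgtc
Adamts1: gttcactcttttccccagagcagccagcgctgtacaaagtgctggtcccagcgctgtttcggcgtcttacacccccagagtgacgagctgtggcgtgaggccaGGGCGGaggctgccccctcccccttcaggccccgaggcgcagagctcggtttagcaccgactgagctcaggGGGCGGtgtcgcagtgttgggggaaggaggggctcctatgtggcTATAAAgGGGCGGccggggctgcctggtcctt
Counted from the start site, with negative positions before it, Timp1 held CAGGAAG at -176, -100 and 40, GGAATG at -247, a GC box at -8 and a TGAGTNA match at 27, the last of these, like the CAGGAAG at 40, past the bases shown. Timp4 held 1 CAGGAAG match, on the opposite strand, and no GC box. Adamts1 held GGGCGG 3 times and TATAAA once, at -32. None of the 6 windows held a CArG box. Over the window from 250 bases before to 50 after the start site, CAGGAAG occurred in 13.3% of the 32851 promoters of the table, GGAATG in 14.7%, TGAGTNA in 14.7%, GGGCGG in 35.7%, TATAAA in 13.6% and a CArG box in 1.63%. A match describes the letters of the window and not a bound site.

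Among the proteoglycan-cleaving proteases, Adamts1 and Adamts8 fell in CSA, and Adamts4, the least abundant in CFS, was the one whose CSA level was above all others. Adamts1 (ENSMUSG00000022893, chromosome 16, 85793827 to 85803113, minus strand) was the most abundant ADAMTS gene under saline. It measured 121, 196 and 96.8 FPKM in CFS, 89.8, 136 and 81.4 FPKM in CSS, 47.3, 94.1 and 69.5 FPKM in CFA, and 24.4, 29.9 and 34.0 FPKM in CSA. From high to low the order was CFS, CSS, CFA, CSA, with overlap between CFS and CSS and between CSS and CFA, and the CSA mice lay apart. CFS mouse 69, the highest, was also the mouse with the fewest endothelial transcripts (6 markers summing to 89.7 FPKM, against 374 and 378 in the other CFS mice), and the part of cell makeup in its value was not tested. The log2 fold change of CSA against CFA was -1.21 (standard error 0.31, adjusted p = 0.0101, limma), or 2.31-fold lower.

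Adamts8 (ENSMUSG00000031994, chromosome 9, 30942562 to 30963838, plus strand) had the largest decrease of the proteases. It measured 27.5, 46.9 and 35.5 FPKM in CFS, 20.1, 29.3 and 26.7 FPKM in CSS, 43.7, 27.9 and 20.01 FPKM in CFA, and 4.79, 5.17 and 2.46 FPKM in CSA. The first 3 groups overlapped with one another, CFS and CSS included, and the CSA mice lay below all 9. From CFA to CSA it fell 7.20-fold (log2 fold change -2.85, standard error 0.34, adjusted p = 7.15e-05, limma), and the value was -2.52 without CSA mouse 03. The annotation gives 10.6% of its exonic bases to a second gene as well, Gm29724, and counting could have divided those fragments.

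Adamts4 (ENSMUSG00000006403, chromosome 1, 171250421 to 171260637, plus strand), a potent aggrecanase, was the only one of the 6 ADAMTS proteases described here with its highest levels in all CSA mice. It measured 1.64, 1.42 and 1.63 FPKM in CFS, 0.392, 1.29 and 0.344 FPKM in CSS, 1.84, 1.93 and 1.59 FPKM in CFA, and 7.36, 4.72 and 2.32 FPKM in CSA. The CSA mice lay above all others, with mouse 03 closest to the rest, and the CSS mice lay below all others, with mouse 55 closest. CSS mouse 55 also carried skeletal muscle transcripts (5 markers summing to 244 FPKM, against 2.73 and 3.58 in the other CSS mice), as did CFS mouse 68 (152 FPKM, against 3.31 and 3.93 in the other CFS mice), and their part in its value was not tested. The log2 fold change of CSA against CFA was 1.24 (standard error 0.46, adjusted p = 0.0514, limma), just short of the threshold. It was 1.67 without CSA mouse 03 (adjusted p = 0.00872, limma), the adjusted p was 0.0179 without CSS mouse 55 and 0.0497 without CSS mouse 56, and over 20 alternatives the adjusted p ran from 0.00605 to 0.17. The values rest on 35 to 719 fragments per mouse.

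Adamts5 (ENSMUSG00000022894, chromosome 16, 85856173 to 85901828, minus strand), the other major aggrecanase, measured 13.8, 15.7 and 12.7 FPKM in CFS, 7.68, 10.4 and 7.64 FPKM in CSS, 9.54, 8.71 and 10.2 FPKM in CFA, and 7.49, 8.13 and 14.8 FPKM in CSA. CFS stood above CSS and CFA, and in CSA mice 01 and 02 lay below the CFA mice whereas mouse 03 lay among the CFS mice. The log2 fold change of CSA against CFA was 0.03 (95% interval -0.49 to 0.55), and it was -0.28 without CSA mouse 03 (adjusted p = 0.148, limma). Adamts15 (ENSMUSG00000033453, chromosome 9, 30899155 to 30922452, minus strand) measured 22.3, 30.2 and 24.0 FPKM in CFS, 10.04, 15.5 and 9.25 FPKM in CSS, 12.97, 7.45 and 19.04 FPKM in CFA, and 11.1, 7.40 and 7.18 FPKM in CSA. The CFS mice stood above all 9 others, and the remaining groups overlapped. Its log2 fold change of CSA against CFA was -0.54 (95% interval -1.26 to 0.17). When 1 mouse was left out the value ran from -0.90 to -0.23. Adamts15 passed the test only when CFA mouse 72 was left out (-0.90, adjusted p = 0.0312, limma).

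Adamts2 (ENSMUSG00000036545, chromosome 11, 50602084 to 50807573, plus strand), the procollagen N-proteinase, measured 74.2, 103 and 80.5 FPKM in CFS, 53.8, 56.02 and 53.4 FPKM in CSS, 108, 84.4 and 107 FPKM in CFA, and 87.0, 66.5 and 52.5 FPKM in CSA. The CSS mice were close to one another, and CSA spanned the range from CSS to CFA. The fall from CFA to CSA was 1.48-fold (log2 fold change -0.56, standard error 0.19, adjusted p = 0.0381, limma). It passed the test in 9 of 21 alternatives. The call was lost without CFS mouse 70, any CSS mouse, CFA mouse 71 or 74, or CSA mouse 02 or 03, with an adjusted p of 0.0516 to 0.117 in limma. Without CSA mouse 03 the log2 fold change was -0.38 (adjusted p = 0.0863, limma).

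The summed FPKM of the 6 proteases was 301.9 ± 79.7 in CFS, 203 ± 39.4 in CSS, 225 ± 2.06 in CFA and 126 ± 14.9 in CSA (mean ± SD over 3 mice). The CSA mice, at 113 to 142, lay below the other 9. Adamts1 made up 38.6% to 49.8% of the sum in CFS, and Adamts2 made up 46.3% to 61.2% in CSA. Adamts4 made up 0.698% to 0.860% of the sum in CFA and 2.05% to 5.18% in CSA. It stood at 0.0421 to 0.0794 times the FPKM of Adamts8 in CFA and at 0.914 to 1.54 times in CSA, so that the transcripts of the 2 enzymes were at a like level there. The sum of the proteases over that of the inhibitors was 0.435 to 0.618 in CFS, 0.266 to 0.380 in CSS, 0.335 to 0.385 in CFA and 0.123 to 0.194 in CSA. In CSA, Timp1 made up 44.6% to 68.5% of the inhibitor sum. Timp3, the inhibitor that reaches ADAMTS enzymes, made up 4.13% to 8.98% of it. The ratio is thus one of transcripts and not of ADAMTS inhibition, and it was not tested.

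Smooth muscle markers fell from CFA to CSA, as did 6 of the 10 genes. All 8 markers were differentially expressed and lower in CSA than in CFA. Their sums were 801 to 961 FPKM against 5589 to 8467 FPKM, with none at 0. Of the 6 genes, Adamts2 was also low in CSS (53.4 to 56.02 FPKM), where these markers summed to 7752 to 8806 FPKM. The sum of 7 fibroblast markers was 913 to 1050.1 FPKM in CSA and 977 to 1047 FPKM in CFA, where 2 rose and 3 fell, and that of 6 endothelial markers was 120 to 156 and 197 to 413 FPKM, where 1 rose and 2 fell (1 without CFA mouse 71 or 74 or CSA mouse 01 or 02). Of all tested genes 19.5% rose and 21.2% fell. The 5 adipocyte markers summed to 11.7 to 50.9 FPKM in CSA and to 49.3 to 146 FPKM in CFA, where 2 fell. How far cell makeup sets the levels of the 10 genes was not tested.

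**Figure D3:**
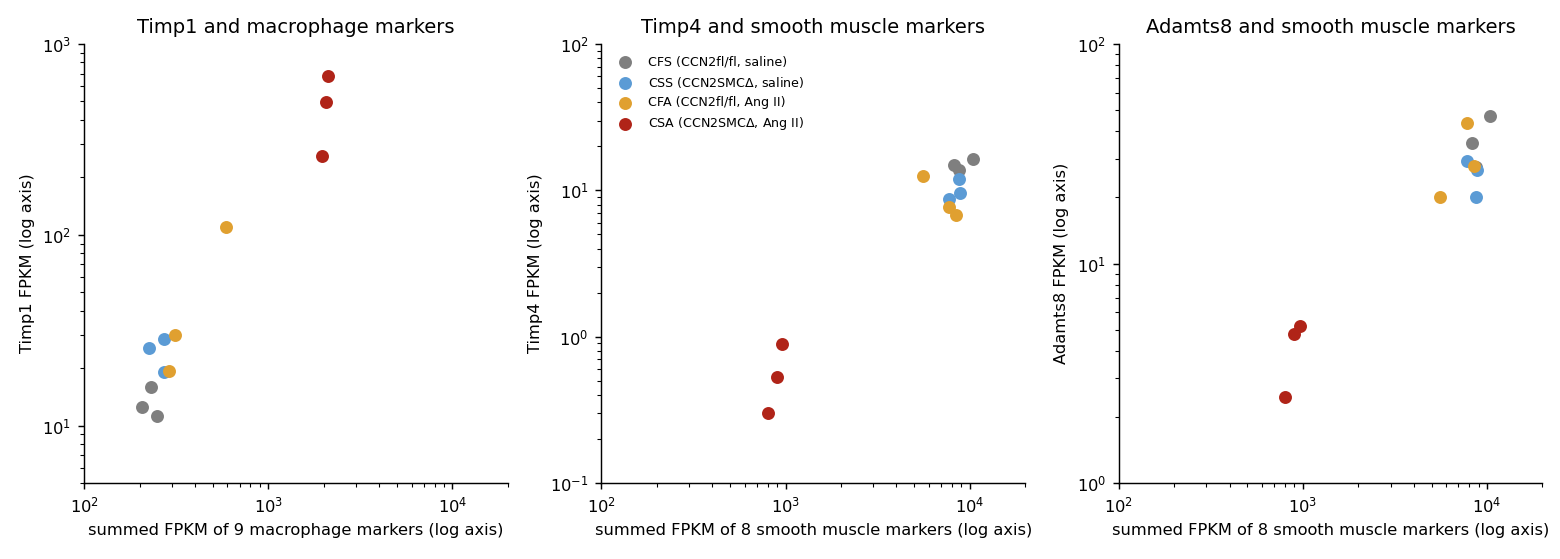
Each point is 1 mouse, colored by group. Timp1 FPKM is plotted against the summed FPKM of 9 macrophage markers, and Timp4 and Adamts8 FPKM against the summed FPKM of 8 smooth muscle markers, with log axes throughout. The 3 CSA mice stand apart from the other 9 on both axes of each panel, and CFA mouse 72 lies between the clusters for Timp1.

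Under saline, where the genotypes were compared without Ang II and Ccn2 itself overlapped between them, none of the 10 genes passed the adjusted test, although 4 proteases were lower in CSS than in CFS at an unadjusted p under 0.05. Adamts15 stood 2.23-fold lower (log2 fold change -1.16, standard error 0.32, adjusted p = 0.453, limma), Adamts4 2.47-fold lower (-1.31, adjusted p = 0.618), Adamts5 1.64-fold lower (-0.72, adjusted p = 0.572) and Adamts2 1.56-fold lower (-0.65, adjusted p = 0.498). Their values did not overlap between the groups. None of the inhibitors passed an unadjusted p of 0.05, with log2 fold changes of 0.87 for Timp1 (95% interval -0.34 to 2.07), 0.12 for Timp2, 0.11 for Timp3 and -0.57 for Timp4 (95% interval -1.26 to 0.11). The 4 of 10 at an unadjusted p under 0.05 stand against 6.3% of all tested genes, and 7 of 10 without overlap stand against 20.4%. At an adjusted p under 0.05 there were 0 of 10, against 0.0204% of tested genes, and with the fold limit 0 of 10, against 0.0136%. The median log2 fold change of the 10 was -0.54, against 0.01 over all tested genes. With array weights Adamts5 alone passed (-0.71, adjusted p = 0.0345, limma).

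In CCN2fl/fl mice, 5 of the 10 genes differed between Ang II and saline at an unadjusted p under 0.05, again with none past the adjusted test (0 of 10, against 0.0341% of tested genes, and 0 of 10 with the fold limit, against 0.0273%). Timp1 was 3.03-fold higher in CFA than in CFS (log2 fold change 1.60, standard error 0.55, adjusted p = 0.361, limma), and the value was 0.87 without CFA mouse 72. Adamts15 was 2.05-fold lower (-1.04, adjusted p = 0.294), Adamts1 1.95-fold lower (-0.97, adjusted p = 0.33), Timp4 1.72-fold lower (-0.78, adjusted p = 0.447) and Adamts5 1.47-fold lower (-0.56, adjusted p = 0.482). These 5 stand against 9.42% of all tested genes, and 6 of 10 did not overlap between CFA and CFS, against 20.2%. Timp2, Adamts4, Adamts8 and Adamts2 overlapped, with log2 fold changes of 0.07, 0.18, -0.30 and 0.22. This comparison and the one under saline share the CFS mice, so that a high or low CFS value enters both.

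In CCN2SMCΔ mice, Timp1 and Adamts4 were higher under Ang II than under saline, and Timp2, Timp3, Timp4, Adamts1 and Adamts8 were lower. Timp1 rose 18.3-fold from CSS to CSA (log2 fold change 4.20, standard error 0.55, adjusted p = 9.86e-05, limma) and Adamts4 6.60-fold (2.72, standard error 0.46, adjusted p = 0.00059; 1.74 with a pseudocount of 1). Timp4 fell 16.1-fold (-4.01, standard error 0.31, adjusted p = 3.02e-06, limma), Adamts8 6.22-fold (-2.64, adjusted p = 9.23e-05), Adamts1 3.41-fold (-1.77, adjusted p = 0.000844) and Timp3 3.34-fold (-1.74, adjusted p = 2.09e-06). Over 21 alternatives the value of Timp4 ran from -4.33 to -2.83. Timp2 fell 1.67-fold (-0.74), and Adamts5, Adamts15 and Adamts2 did not pass, with log2 fold changes of 0.19, -0.42 and 0.30, although Adamts2 passed without CSA mouse 03 (0.48, adjusted p = 0.0348, limma). The value of Adamts2 was 0.12 without CSA mouse 01, and that of Adamts15 was -0.20 without CSS mouse 55. So 2 of 10 rose and 5 of 10 fell, against 22.3% and 23.9% of all tested genes, 6 of 10 were differentially expressed, against 20.3%, and 7 of 10 did not overlap, against 55.4%. This comparison shares the CSA mice with that under Ang II.

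**Figure D4:**
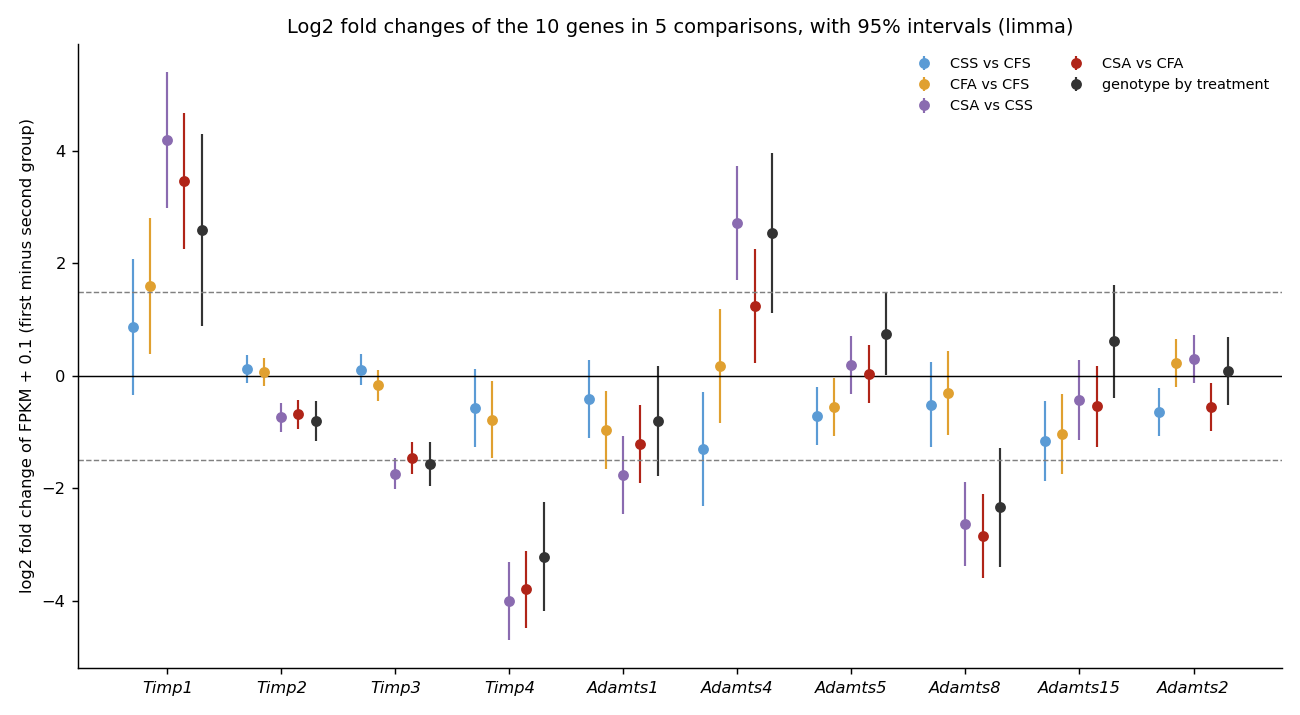
Log2 fold changes of the 10 genes (horizontal axis) in the 4 comparisons of groups and in the interaction of genotype and treatment, as points with 95% intervals from limma. Dashed lines mark the fold limit of 1.5 in either direction. For Timp1, Timp4 and Adamts8 the points of both comparisons with CSA lie beyond the limit, whereas those of CSS against CFS lie within it for all 10 genes.

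The genotype effect itself differed between Ang II and saline for 6 of the 10 genes. This was tested as the interaction, the log2 fold change of CSA against CFA minus that of CSS against CFS. It was 2.60 for Timp1 (standard error 0.77, adjusted p = 0.0292, limma) and 2.54 for Adamts4 (standard error 0.65, adjusted p = 0.0144). It was -3.22 for Timp4 (adjusted p = 0.000472, limma), -2.34 for Adamts8 (adjusted p = 0.00475), -1.57 for Timp3 (adjusted p = 0.000182) and -0.81 for Timp2 (adjusted p = 0.00383). Adamts1 (-0.80, 95% interval -1.79 to 0.18), Adamts5 (0.75, 0.02 to 1.48), Adamts15 (0.61, -0.40 to 1.62) and Adamts2 (0.08, -0.52 to 0.69) did not pass the adjusted test. The value of Adamts5 was 0.44 without CSA mouse 03, and that of Adamts15 was 0.26 without CFA mouse 72. The 2 of 10 with a positive and the 4 of 10 with a negative difference stand against 12.8% and 13.7% of all tested genes, and the 5 of 10 past the fold limit against 15.2%. For Timp1 the adjusted p stayed under 0.05 in 11 of 20 alternatives and ran from 0.000793 to 0.0719, and it was lost when low values were not filtered and without CFS mouse 69 or 70, CSS mouse 54 or 56, CFA mouse 71 or 74, or CSA mouse 01 or 02. Adamts4 combined a lower level in CSS than in CFS with a higher level in CSA than in CFA, so that its genotype difference had opposite signs under the 2 treatments.

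The positions of these genes give pairs that can be compared. Timp1 lies within Syn1, Timp3 within Syn3 and Timp4 within Syn2, each on the opposite strand of its host, a synapsin gene of neurons. Syn1, which reached the filter only through the CSA mice, rose from CFA to CSA (log2 fold change 0.88, adjusted p = 0.0263, limma) but averaged only 1.61 FPKM in CSA, against 477 for Timp1. The Syn1 call was lost without CFA mouse 71 or 74 or CSA mouse 03, with an adjusted p of 0.0573 to 0.0877 in limma. Syn2 did not pass (-0.74, adjusted p = 0.181) except without CSA mouse 03 (-1.26, adjusted p = 0.00479, limma), and Syn3 was too low to be tested, at 0.0319 to 0.296 FPKM over the 12 mice. The exons of Timp3 share 21.3% of their bases with Syn3 and those of Timp4 1.53% with Syn2, and whether the counting used strand is not given in the sources used here. Adamts1 and Adamts5 lie 53059 bases apart on the same strand of chromosome 16, and Adamts8 and Adamts15 lie 20109 bases apart on opposite strands of chromosome 9. In both pairs the one gene fell in CSA against CFA, Adamts1 by 1.21 and Adamts8 by 2.85 on the log2 scale, while its neighbor did not pass the test.

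Across the 12 libraries, the genes with the most similar pattern were found by Pearson correlation of log2(FPKM + 0.1), as a description over libraries that fall into the 3 CSA mice and the other 9. For Timp3 they were Cdc42bpa (r = 0.997) and Dst (0.996), for Timp2 Osbpl3 (0.996) and Tnik (0.986), and for Timp4 Clec3b (0.992) and Grhpr (0.991). For Timp1 they were Nlrp1c-ps (0.989) and Ccdc88b (0.987), for Adamts8 Sema3b (0.987) and Gm11627 (0.985), for Adamts4 Arsi (0.99) and Ackr1 (0.934), and for Adamts1 Dnajb4 (0.983) and Bag3 (0.975), both cochaperone genes. Clec3b, the nearest gene of Timp4, is 1 of the 7 fibroblast markers and the only one of them differentially expressed in CSA against CFA. It averaged 282 FPKM in CFA and 30.3 FPKM in CSA. Among the 10 genes, Timp2, Timp3, Timp4 and Adamts8 correlated with one another at 0.909 to 0.959, and Timp1 correlated with Timp3 at -0.94. Adamts5 and Adamts2 had nearest genes at 0.913 (Hsdl2) and 0.871 (Lgi3) only.

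The other genes of the ADAMTS system were taken from lists by family and function. Of 13 other ADAMTS genes 7 were tested, and under Ang II 2 rose and 2 fell in CSA against CFA, none past the fold limit, against 19.5%, 21.2% and 17.2% of all tested genes. Without CFA mouse 74, CSA mouse 01 or CSA mouse 02, 1 was past it. Named after their values were seen, they were Adamts3, a procollagen N-proteinase like ADAMTS2 (log2 fold change 1.17), Adamts12 (0.82), Adamts14, another procollagen N-proteinase (-1.39), and Adamts9 (-0.69). The call of Adamts9 (adjusted p = 0.0492, limma) was lost without any single mouse other than CFA mouse 74 and CSA mouse 03, and that of Adamts12 without CFA mouse 74 or CSA mouse 03. Without CSA mouse 03 Adamts7 rose instead (1.05, adjusted p = 0.0167, limma). Adamts3 reached the filter only through the CSA mice, at 1.49 to 2.35 FPKM against 0.423 to 0.946 FPKM in the other 9. Of 7 ADAMTS-like genes, whose products resemble ADAMTS proteins without the protease domain and bind fibrillin microfibrils or their partners, 6 were tested and all 6 fell, against 21.2% of all tested genes, with a median log2 fold change of -1.44, against -0.04. Thsd4, which encodes ADAMTSL6, fell from 33.1 ± 1.38 FPKM in CFA to 1.56 ± 0.315 in CSA (SD over 3 mice per group). Its log2 fold change was -4.34 (adjusted p = 8.05e-08, limma). Adamtsl5 fell by 2.22 and Adamtsl2 by 1.89 on the log2 scale. The count of 6 includes Adamtsl4, which measured 9.84, 11.4 and 3.53 FPKM in CSA mice 01, 02 and 03 and 13.2 to 14.6 FPKM in CFA. Its log2 fold change was -0.92 (adjusted p = 0.0477, limma) and -0.40 without CSA mouse 03 (adjusted p = 0.00578), and the call was lost without any single CFS, CSS or CFA mouse. Without CFA mouse 74 the count was 4, since Adamtsl1 did not pass either, and without CSA mouse 02 Adamtsl1 did not pass.

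Of 17 substrates of these proteases 14 were tested, and 8 rose and 1, Bgn, fell in CSA against CFA, against 19.5% and 21.2% of all tested genes, with a median log2 fold change of 0.85. Past the fold limit were Tfpi2, a Kunitz-type inhibitor of serine proteases that reached the filter only through the CSA mice (log2 fold change 3.03, adjusted p = 0.000349, limma), and Thbs2, a matricellular thrombospondin, which rose from 15.5 ± 2.29 to 104 ± 25.4 FPKM (SD, n = 3 each; 2.72, adjusted p = 1.05e-05). The large proteoglycans themselves did not pass, with log2 fold changes of 0.19 for Vcan and 1.06 for Acan, although Acan passed without CFA mouse 72 (1.74, adjusted p = 0.000451, limma). Without CSA mouse 03 the counts were 9 and 2, and Vcan was at -0.10. Of 14 genes for activation and clearance 12 were tested, and 5 fell and 0 rose, against 21.2% and 19.5% of all tested genes. Without CSA mouse 03, 3 rose (Furin, Pcsk7 and Cd63), and without CSA mouse 02, 1 rose. Those that fell include Pcsk6, a proprotein convertase that can activate ADAMTS zymogens (-2.32), and Reck, a membrane-anchored inhibitor of metalloproteinases (-1.84, adjusted p = 2.87e-06, limma), which fell from 32.6 ± 5.42 to 8.97 ± 0.158 FPKM (SD, n = 3 each).

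The proteases that the TIMPs inhibit included genes that rose and genes that fell, the latter at a share close to that of all tested genes. Of 23 MMP genes 15 were tested. In CSA against CFA 9 rose and 3 fell, where 19.5% of all tested genes rose and 21.2% fell. When any single CFA or CSA mouse was left out, 8 rose and 3 fell. The largest changes were those of Mmp13 (log2 fold change 6.71), Mmp8 (4.61) and Mmp17 (-3.54). Of the 9 that rose, Mmp8, Mmp12, Mmp13 and Mmp25 reached the filter only through the CSA mice, where they were high, and of the other 11 tested MMP genes 5 rose, against 15.5% of all genes that reached the filter without the CSA mice. Of 12 ADAM genes 9 were tested, and 5 rose and 2 fell, led by Adam8 (4.18), Adam12 (3.29) and Adam33 (-2.37). Without CFA mouse 71, CFA mouse 74 or CSA mouse 03 the counts were 4 and 2. Adam8 and Adam12 also reached the filter only through the CSA mice, which leaves 3 that rose of 7. Mmp14, the partner of TIMP2 in the activation of pro-MMP2, measured 35.9 to 38.6 FPKM in CFA and 72.8 to 155 FPKM in CSA, and Mmp14 over Timp2 was 0.0779 to 0.0867 in CFA and 0.269 to 0.510 in CSA. The lowest ratio in CSA was that of mouse 03, and it was above the highest of the other 9 mice. Ratios are given as descriptions without a test.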

How the data were processed

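Abdominal aortas of 12 male mice, 4 groups of 3, were sequenced as poly(A) RNA in pairs of 150 bases, and groups were taken from the sample labels. The authors deposited FPKM (fragment numbers scaled to gene length and sequencing depth), with 1 value per gene and mouse. The submitters' processing notes name HISAT2 2.0.5, StringTie 1.3.3b, featureCounts 1.5.0-p3 and mm10. Exon lengths from GENCODE M21 on GRCm38 gave whole numbers of fragments (within 0.05) for 98.0% to 98.5% of values below 100 fragments, and their sum, 14558580 to 23107807 per mouse, was taken as depth. Of 55092 features, 560 had no Ensembl identifier. The labels give each library its own number, taken here as that of 1 mouse. The tests set differences between groups against the spread among mice within groups.

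From the deposited FPKM, log2(FPKM + 0.1) was fitted in R 4.3.3 with limma 3.58.1, using a mean for each of the 4 groups and eBayes with its trend and robust options on. The 14676 genes that reached 1 FPKM in 3 libraries or more were tested, with Benjamini-Hochberg adjustment over all of them within each of 5 comparisons. Differentially expressed means that the adjusted p was under 0.05 and the log2 fold change exceeded 1.5 in either direction. The fold limit and the 0.05 are those of the study's methods, which name DEG-Seq as the test and state no adjustment there. The legend of the study's volcano plot gives the 0.05 as a limit on adjusted p, with the same fold limit. The fit was tested on simulated data first.

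The text names the 10 genes, Ccn2, of each pathway list up to 3 differentially expressed genes with the largest change in CSA against CFA, the synapsins that host a Timp gene, and up to 2 most correlated genes of each member. Other genes were named for their role or after their values were seen, among them Adamts3, Adamts7, Adamts9, Adamts12, Adamts14, Adamtsl1, Adamtsl4, Bgn, Vcan, Acan, Furin, Pcsk7, Cd63, Mmp12, Mmp14, Mmp25, Itgam, Ly6g and Mrc1. The 10 genes, the 7 pathway lists and the 13 marker lists were chosen with earlier results of these data known. Marker lists not given in the report, as the range of summed FPKM in CFA and then in CSA, were B cell (1.26 to 2.41, 4.61 to 7.91), skeletal muscle (3.40 to 5.56, 2.58 to 3.99), erythrocyte (694 to 2321, 55.97 to 566), Schwann cell (4.23 to 7.47, 13.8 to 18.1), lymph node stroma (1.51 to 5.35, 3.05 to 11.7) and mesothelium (0.272 to 1.03, 0.141 to 0.220). Alternatives were a pseudocount of 1, no filter, a mean FPKM of at least 5, 3 other scalings (that to fragments alone chosen after seeing the data), no trend or robust settings, array weights, only the 2 groups compared, the thresholds taken singly, and leaving out each mouse, which for the lists was added after seeing the data. Python 3.11.15 with numpy 2.4.6 and pandas 2.3.3 wrote the tables, and matplotlib 3.10.9 drew the figures.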

Additional observations from a re-analysis of the deposited data

Results flagged for a closer look

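The genotype effect differed between Ang II and saline, by the interaction test in limma with Benjamini-Hochberg adjustment, for 6 of the 10 genes. Of these, 2 had a positive and 4 a negative difference, against 12.8% and 13.7% of all tested genes. For Timp1 the adjusted p was under 0.05 in only 11 of 20 alternatives. The difference between the log2 fold changes under Ang II and under saline was 2.60 for Timp1 (3.47 against 0.87, adjusted p = 0.0292) and 2.54 for Adamts4 (1.24 against -1.31, adjusted p = 0.0144). It was -0.81 for Timp2 (-0.69 against 0.12, adjusted p = 0.00383), -1.57 for Timp3 (-1.46 against 0.11, adjusted p = 0.000182), -3.22 for Timp4 (-3.80 against -0.57, adjusted p = 0.000472) and -2.34 for Adamts8 (-2.85 against -0.51, adjusted p = 0.00475). Adamts4 is the gene with a lower level in all 3 CSS mice than in any CFS mouse and a higher level in all 3 CSA mice than in any CFA mouse. In CSA the smooth muscle markers summed to 801 to 961 FPKM and the macrophage markers to 1968 to 2102 FPKM, against at least 5589 and at most 588 FPKM in the other 9 mice, and their part in these differences was not tested.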

How the results depend on the processing

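With 3 mice per group, the count of differentially expressed genes among the 10 depended on single mice and on the threshold. In CSA against CFA it was 3, and it was 5 with array weights, 7 with an adjusted p and no fold limit, and 3 to 5 when 1 mouse was left out, with the 5 reached without CSA mouse 03. For the interaction it was 5, and it was 3 to 5 when 1 mouse was left out, with the 3 reached without CSA mouse 02. In CFA against CFS it was 0, and it was 1 with an unadjusted p and the fold limit. Over all tested genes it was 2528 in CSA against CFA (1095 with a mean FPKM of at least 5 to 5978 with no fold limit), 2 in CSS against CFS (0 to 132) and 4 in CFA against CFS (0 to 243), both highest with an unadjusted p. In CFA against CFS it was 124 without CFA mouse 74 and 147 with array weights. A pseudocount of 1 moved the interaction of Timp4 from -3.22 to -2.10 and that of Adamts4 from 2.54 to 1.62. The alternatives left the other counts of differentially expressed genes among the 10 within 1.5 times, and the cause of the moves was not tested. In CSA against CFA 1 of the 10 rose, but 2 rose with a pseudocount of 1, scaling to equal sums or to fragments alone, or array weights. The same held without CSS mouse 55 or 56 or CSA mouse 03. Positive interactions numbered 2, but 1 with no filter, with a mean FPKM of at least 5, or without CFS mouse 69 or 70. They also numbered 1 without CSS mouse 54 or 56, CFA mouse 71 or 74, or CSA mouse 01 or 02. No paired analysis was possible because the groups share no mouse numbers. Signs turned only for genes that did not pass the test. For Adamts5 in CSA against CFA (0.03) the value was -0.25 with array weights and -0.28 to 0.21 when 1 mouse was left out, below 0 without CSA mouse 03 (-0.28) or CFA mouse 72 (-0.03). For Adamts5 in CSA against CSS (0.19) it was -0.0735 with array weights and -0.12 to 0.37 when 1 mouse was left out. For Adamts8 in CFA against CFS (-0.30) it was 0.0604 with array weights and -0.59 to -0.03 when 1 mouse was left out. For Adamts2 in the interaction (0.08) it was -0.10 to 0.26 when 1 mouse was left out, below 0 without CFS mouse 69 (-0.06), CFA mouse 72 (-0.03) or CSA mouse 01 (-0.10). Over the 10 genes and 5 comparisons, 994 values kept their direction and side of the threshold, 21 lost the adjusted p under 0.05, 11 gained it and 9 changed sign. Adamts4 had no value with a mean FPKM of at least 5. Depth limits Timp4 in CSA, at 27 to 111 fragments, and Adamts4, at 35 or more.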
